A study of Mus musculus with 6 samples.

Results

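The 4 Shc adaptor genes (*Shc1* to *Shc4*) and the 2 stanniocalcin genes (*Stc1* and *Stc2*) were followed in retinas of control and *Yap* cKO mice, 6 genes of the 55421 in the count table. They were matched by symbol. *Shc3* and *Stc2* were picked because of their difference between the genotypes, and the other 4 are their family relatives, so the comparison of the genotypes is given for all 6 as a description. Whether *Shc3* and *Stc2* met the criteria of the study is stated because the choice rested on it, and is no evidence for them. Each library came from the retina of a 2-month-old mouse, with 3 control animals of genotype Yapfl/fl (YR612, YR613 and YR615) and 3 Yapfl/fl;RaxCreERT2 animals (*Yap* cKO; YR711, YR713 and YR714). All 6 animals carried the floxed *Yap* alleles and received 4OH-T (4-hydroxytamoxifen) at postnatal days 10 and 14, which activates the Cre recombinase in the animals that carry it. In the postnatal eye this driver is active in Müller glia, the radial support cells of the retina, and in the non-pigmented epithelium of the ciliary body, so the other cells in a retinal library were not targeted. Since no control animal carried Cre, an effect of the recombinase and an effect of *Yap* loss cannot be told apart. The retinas were biological replicates, and the study compared the genotypes to describe the retinal state behind an eye condition resembling uveitic glaucoma.

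Shc proteins are adaptors that bind phosphorylated tyrosines on activated growth factor and neurotrophin receptors, become phosphorylated themselves and recruit Grb2 with the exchange factors Sos1 and Sos2, which switch on Ras and the ERK kinase relay. Shc1 is made in most tissues, Shc2 and Shc3 are known mainly from neurons, and Shc4 is the member described last. Stanniocalcins are secreted glycoproteins, named after a gland of bony fish that lowers blood calcium. In mammals both inhibit the pappalysins, proteases that free insulin-like growth factors (IGFs) by cutting their binding proteins, and *Stc2* is known as a gene that cells switch on under endoplasmic reticulum (ER) stress and low oxygen.

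The libraries held between 24261799 and 35067068 counted fragments. *Yap1* fell in *Yap* cKO retinas, from 9.61 ± 0.189 to 3.90 ± 0.120 TPM (mean ± SD, n = 3 per group), where TPM is a level per length scaled to the same total in each library. The log2 fold change was -1.36 (SE 0.093; edgeR's quasi-likelihood test, Benjamini-Hochberg adjusted p = 0.000282). Rod markers led the libraries, with summed levels of 51470 to 54865 TPM in control retinas against 48445 to 52613 TPM in *Yap* cKO retinas. The libraries also split by sex-linked genes: *Xist* had 2867 to 6751 counts in control YR615 and *Yap* cKO YR713 and YR714 and at most 1 in the others, where the Y-linked *Ddx3y* had 1031 to 1808. The control group thus held 1 retina with *Xist* and the *Yap* cKO group 2.

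RefSeq promoter windows (GRCm38.p6, from 250 bases before to 50 bases after the start site, printed in the direction of the gene) matched *Shc1*, *Shc2*, *Shc4* and *Stc2*. *Stc2* is shown as the one of the picked pair that matched, and *Shc2* because its window holds the core letters GGAATG of the site bound by TEAD proteins, the DNA-binding partners of YAP. Capitals mark matches on the other strand, to GGAATG in *Shc2* and, in *Stc2*, to the CCAAT box of many promoters, which was searched after the sequences were seen. The *Stc2* window lies at chr11:31370012-31370311 and the *Shc2* window at chr10:79637869-79638168, both on the minus strand.
Stc2: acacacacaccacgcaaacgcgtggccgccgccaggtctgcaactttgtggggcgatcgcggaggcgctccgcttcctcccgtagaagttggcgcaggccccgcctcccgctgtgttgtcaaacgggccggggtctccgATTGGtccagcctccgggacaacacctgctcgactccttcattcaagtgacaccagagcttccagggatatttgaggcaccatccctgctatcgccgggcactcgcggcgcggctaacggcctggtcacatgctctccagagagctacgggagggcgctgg
Shc2: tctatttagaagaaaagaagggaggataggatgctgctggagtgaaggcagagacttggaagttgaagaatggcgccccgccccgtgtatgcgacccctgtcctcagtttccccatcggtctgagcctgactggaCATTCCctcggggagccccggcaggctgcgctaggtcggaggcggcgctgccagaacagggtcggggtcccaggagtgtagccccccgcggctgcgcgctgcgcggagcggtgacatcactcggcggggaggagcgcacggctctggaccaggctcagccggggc
The first capital lies 111 bases before the start site in *Stc2* and 115 bases before it in *Shc2*. GGAATG was found in 14.7% of 32851 promoters and CCAAT in 37.4%, counting both strands, so either is a common match. The exact letters ACGTG, searched as a hypoxia core and found in 19.6% of promoters, matched in neither window. Neither did the ATF4 element TGATGNAA, found in 3.97%. Other spellings of these sites were not searched, among them GCGTG, which the *Stc2* window holds, so these absences cover the searched letters only. Both windows were rich in CpG, with 28 in *Stc2* and 24 in *Shc2* against a median of 7 over all promoters. *Shc1* (both of its start sites) and *Shc4* had CCAAT matches, 4 and 2 at the *Shc1* sites and 1 in *Shc4*, and none of the other 3 motifs. A match describes letters in these windows and does not show that a factor is bound.

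*Shc3* (ENSMUSG00000021448) codes for a Shc adaptor of neurons and lies at chr13:51431041-51569487 on the minus strand of GRCm38. It had 70, 140 and 94 counts in control retinas YR612, YR613 and YR615 and 221, 424 and 215 counts in *Yap* cKO retinas YR711, YR713 and YR714. Per length these were 2.28, 4.39 and 2.63 TPM in control retinas against 7.43, 10.5 and 6.76 TPM in *Yap* cKO. The groups did not overlap: the lowest *Yap* cKO retina, YR714, stood above the highest control, YR613. The mean level was 3.10 ± 1.13 TPM (SD, n = 3) in control and 8.22 ± 1.98 TPM in *Yap* cKO. The log2 fold change was 1.36 (SE 0.24). Of the 6 members, *Shc3* and *Stc2* met the criteria of the study (adjusted p of at most 0.05, fold change of at least 1.5, mean of at least 5 TPM in 1 group), which 0.796% of the 16575 tested genes did. In TPM the groups did not overlap for *Shc2*, *Shc3* and *Stc2*, as for 24.3% of all genes tested, 15.2% being higher and 9.04% lower in *Yap* cKO. Since the members were picked on this contrast, neither count is a result about them.

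*Stc2* (ENSMUSG00000020303, chr11:31357307-31370074, minus strand) had 73, 78 and 78 counts in control retinas and 106, 290 and 238 in *Yap* cKO retinas. Its levels were 2.14, 2.20 and 1.96 TPM in control retinas against 3.21, 6.44 and 6.73 TPM in *Yap* cKO (in the order YR711, YR713, YR714). The controls lay close together while the *Yap* cKO retinas spread widely, with YR711 nearest to the controls. The mean was 2.10 ± 0.124 TPM in control retinas against 5.46 ± 1.96 TPM in *Yap* cKO. The log2 fold change was 1.33 (SE 0.27). The high *Yap* cKO retinas, YR713 and YR714, are the ones with *Xist*. In retinas with *Ddx3y*, *Stc2* was at 2.14 and 2.20 TPM in control retinas against 3.21 TPM in *Yap* cKO; in retinas with *Xist*, it was at 1.96 TPM in control retinas against 6.44 and 6.73 TPM in *Yap* cKO. It was higher in *Yap* cKO on both sides of this split, and whether the size of the difference depends on sex was not tested.

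**Figure D1:**
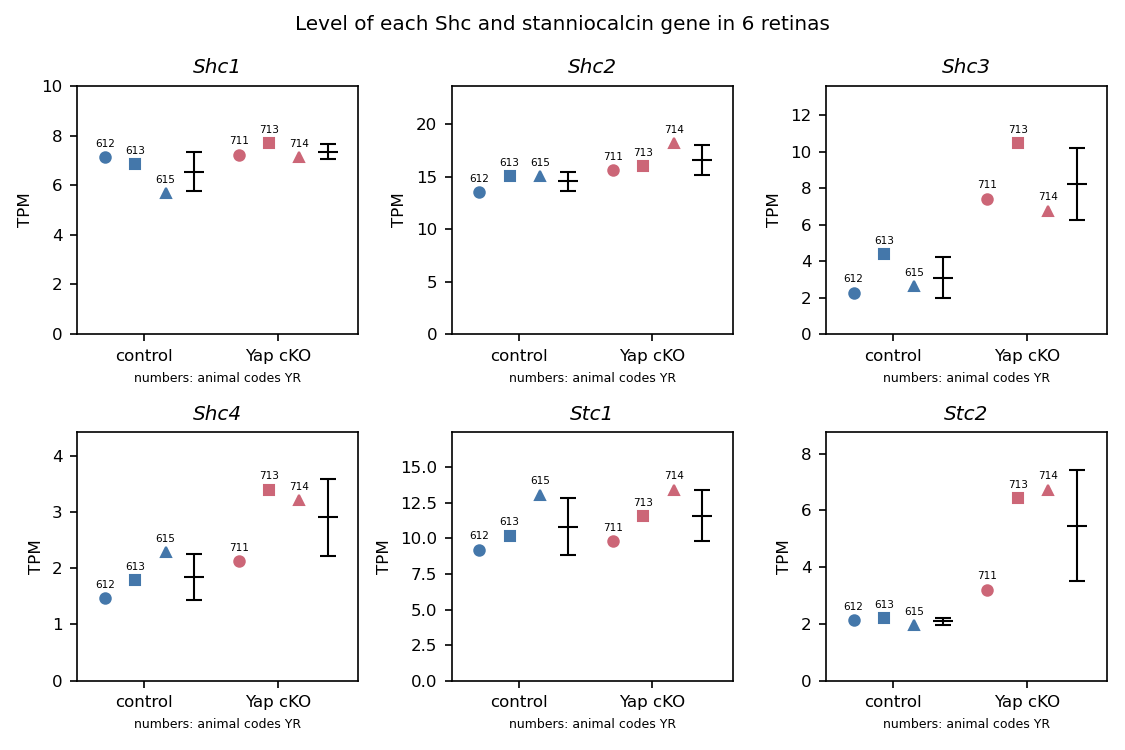
Level of each of the 6 genes in TPM (y axis, starting at 0) in 3 control and 3 *Yap* cKO retinas, 1 point per retina, with the mean and SD of each group in black. *Shc3* lay between 2.28 and 4.39 TPM in control retinas and *Stc2* between 1.96 and 2.20 TPM. In *Yap* cKO, *Shc3* lay between 6.76 and 10.5 TPM and *Stc2* between 3.21 and 6.73 TPM.

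The relatives differed less between the groups. *Stc1* (ENSMUSG00000014813, chr14:69029238-69041804, plus strand), the founding stanniocalcin of mammals, was at 9.21, 10.2 and 13.1 TPM in control retinas against 9.81, 11.6 and 13.4 TPM in *Yap* cKO. These ranges cover almost the same span, with means of 10.8 ± 2.01 and 11.6 ± 1.81 TPM and a log2 fold change of 0.04 (SE 0.16). Split by sex-linked genes, *Stc1* was at 11.6 to 13.4 TPM in retinas with *Xist* and at 9.21 to 10.2 TPM in those with *Ddx3y*. Whether its level depends on sex was not tested. *Shc1* (ENSMUSG00000042626, chr3:89418443-89430027, plus strand), the widely expressed adaptor, was at 7.14, 6.85 and 5.67 TPM in control retinas against 7.24, 7.69 and 7.13 TPM in *Yap* cKO. Its groups overlapped by a narrow margin, and the log2 fold change was 0.11 (SE 0.12).

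*Shc2* (ENSMUSG00000020312, chr10:79618051-79637918, minus strand), a neuronal adaptor, was at 13.5, 15.1 and 15.0 TPM in control retinas against 15.61, 15.99 and 18.20 TPM in *Yap* cKO. The groups did not overlap in TPM but did in CPM, which is not set per length, and the log2 fold change was 0.13 (SE 0.099). *Shc4* (ENSMUSG00000035109, chr2:125627447-125724148, minus strand) was at 1.47, 1.78 and 2.28 TPM in control retinas against 2.12, 3.39 and 3.21 TPM in *Yap* cKO. Here YR711 fell within the control range and the other *Yap* cKO retinas lay above it. *Shc4* was at 2.28 to 3.39 TPM in retinas with *Xist* and at 1.47 to 2.12 TPM in those with *Ddx3y*. Whether its level depends on sex was not tested either. The mean of *Shc4* was 1.84 ± 0.411 TPM in control retinas against 2.91 ± 0.686 TPM in *Yap* cKO. The log2 fold change was 0.60 (SE 0.22). Exons on the opposite strand overlap *Shc2* over 63 bases, *Shc4* over 527 bases (*Eid1*) and *Stc1* over 229 bases, and the counting used strand.

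In control retinas the order of levels was *Shc2*, *Stc1*, *Shc1*, *Shc3*, *Stc2* and *Shc4*, from 14.6 ± 0.874 TPM for *Shc2* down to *Shc4*. Of the neighbours in this order, only *Stc2* and *Shc4* overlapped in range. In *Yap* cKO retinas *Shc3* stood above *Shc1*, but their ranges overlapped, as did those of *Stc1* and *Shc3* and of *Stc2* and *Shc4*. The summed level of the 4 Shc genes was 24.4, 28.1 and 25.6 TPM in control retinas against 32.4, 37.5 and 35.3 TPM in *Yap* cKO. Of this sum *Shc3* held 9.33%, 15.6% and 10.3% in control and 22.9%, 27.9% and 19.2% in *Yap* cKO retinas. *Shc2* stayed the most abundant Shc gene in all 6 retinas, with 53.7% to 58.7% of the sum in control and 42.6% to 51.6% in *Yap* cKO retinas. *Stc2* held 13.0% to 18.8% of the summed stanniocalcin level in control and 24.6% to 35.8% in *Yap* cKO retinas, so *Stc1* remained the more abundant in each retina. These shares contain the differences of *Shc3* and *Stc2* given above and are no separate evidence of them.

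**Figure D2:**
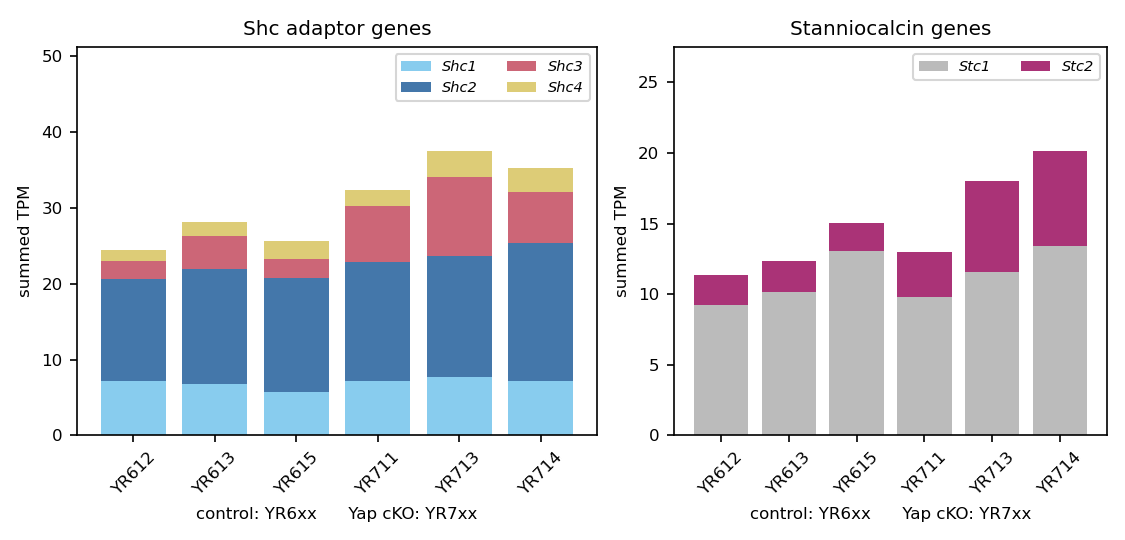
Stacked bars of the level in TPM (y axis) of the 4 Shc genes (left) and of the 2 stanniocalcin genes (right) in each retina. *Shc3* took 9.33% to 15.6% of the Shc sum in control and 19.2% to 27.9% in *Yap* cKO retinas.

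In these libraries longer genes tended to have higher log2 fold changes (Spearman's rho 0.391 across genes, which are not independent replicates). Corrected for length, the log2 fold changes were 1.36 for *Shc3*, 1.31 for *Stc2* and 0.50 for *Shc4*. With the retinas' sex-linked genes as a covariate, an alternative chosen after seeing the data, they were 1.37 for *Shc3*, 1.11 for *Stc2* and 0.40 for *Shc4*, and under this covariate neither *Shc3* nor *Stc2* met the criteria. Leaving out each retina in turn gave 1.15 (without YR713) to 1.67 (without YR613) for *Shc3* and 1.14 (without YR714) to 1.59 (without YR711) for *Stc2*. Neither gene met the criteria when YR612, YR615 or YR713 was left out, where the log2 fold changes were 1.20, 1.25 and 1.15 for *Shc3* and 1.37, 1.28 and 1.20 for *Stc2*. Without YR714, and with limma-voom in place of edgeR, *Shc3* met them and *Stc2* did not.

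**Figure D3:**
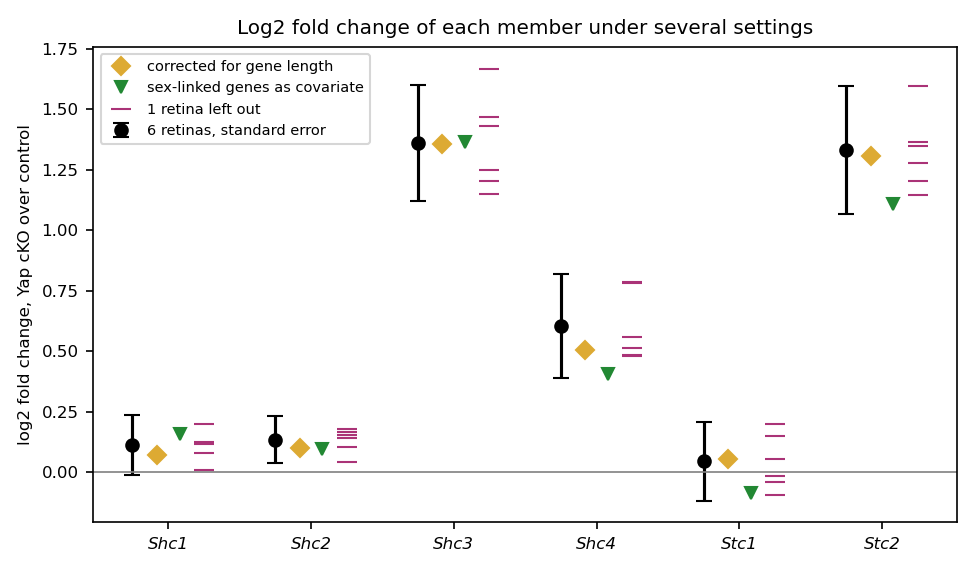
Log2 fold change (y axis, *Yap* cKO over control) of each gene: the fit on 6 retinas with its standard error (black), corrected for gene length (yellow), with sex-linked genes as a covariate (green) and with each retina left out (purple). *Shc3* and *Stc2* stayed between 1.11 and 1.67 in all of these, and *Stc1* lay on both sides of 0.

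The genes around Shc adaptors were taken as lists chosen by function. These and the lists below were chosen with earlier results of these data known, so counts within them are descriptions. Of 15 receptor tyrosine kinases that recruit Shc proteins, 0 passed an adjusted p of 0.05 by edgeR's quasi-likelihood test. At an unadjusted p under 0.05, 4 were higher and 2 lower, against 11.99% and 9.42% of all genes, and the median log2 fold change was 0.04 against 0.00 over all genes. By all criteria, DESeq2's Wald test called 2 (*Ntrk3* and the neuregulin receptor gene *Erbb4*, named after its values were seen), edgeR's likelihood ratio test 1 (*Ntrk3*) and limma-voom 0. *Ntrk3*, the receptor for neurotrophin 3, was at 4.63 ± 0.968 TPM in control retinas against 7.22 ± 1.11 TPM in *Yap* cKO (n = 3; edgeR adjusted p = 0.0776). Its log2 fold change of 0.59 fell to 0.17 with the length correction, its exons spanning 30170 bases. *Erbb2*, a receptor of the epidermal growth factor family, was at 4.28 ± 0.432 and 3.02 ± 0.184 TPM. Its edgeR adjusted p was 0.0673, 0.0381 with the length correction and 0.0982 with the sex covariate. It stayed above 0.05 with any 1 retina left out.

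Of the 17 Shc partners and kinases of the Ras-ERK relay, 0 passed the adjusted threshold by edgeR's quasi-likelihood test, and DESeq2, the likelihood ratio test and limma-voom called 0 by all criteria. In all, 12 were above 0 and 5 below, where 8329 and 8246 of all genes tested lay, and the median log2 fold change was 0.11. At an unadjusted p under 0.05, 4 were higher, against 11.99% of all genes. *Grb2*, the adaptor that Shc proteins recruit, was at 107 ± 5.78 TPM in control retinas against 117 ± 5.69 TPM in *Yap* cKO (log2 fold change 0.07, SE 0.074). The exchange factors were at 14.3 ± 3.04 and 18.2 ± 2.57 TPM for *Sos1* and at 17.0 ± 2.78 and 21.3 ± 2.55 TPM for *Sos2*. The smallest p-value of the list belonged to the kinase gene *Braf*, with a log2 fold change of 0.39 (SE 0.14; edgeR adjusted p = 0.159). Corrected for length, with exons of 13862 bases, it was 0.16. With this correction the log2 fold change went from 0.30 to 0.15 for *Sos1* and from 0.27 to 0.17 for *Sos2*. For *Grb2* it went from 0.07 to 0.14, and the median of the list became 0.14.

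Among genes that ERK signalling induces, 15 of 16 were tested, and *Etv5* and *Spred2* rose at an adjusted p of 0.05, as did 0.501% of all genes, while 0.989% fell. *Etv5*, an ETS transcription factor, was at 27.0, 28.2 and 28.9 TPM in control retinas against 41.0, 54.1 and 49.6 TPM in *Yap* cKO. The groups lay far apart, with a log2 fold change of 0.73 (SE 0.11; edgeR's quasi-likelihood test, adjusted p = 0.0158), and *Etv5* met all criteria, as 0.211% of genes did in this direction. With YR612, YR615 or YR713 left out, its adjusted p was 0.0843, 0.0927 and 0.0784 by the same edgeR test. *Spred2*, an inhibitor of the Ras-ERK relay named here after its values were seen, was at 15.5 ± 1.18 TPM in control retinas against 22.3 ± 1.68 TPM in *Yap* cKO (log2 fold change 0.47, edgeR adjusted p = 0.0412). With YR612, YR615, YR711 or YR713 left out, its adjusted p was 0.193, 0.189, 0.0704 and 0.210 by the same edgeR test, and with the sex covariate it was 0.0683. *Etv4*, a close relative of *Etv5* also named after its values were seen, was at 3.58 ± 0.332 and 6.40 ± 1.82 TPM (log2 fold change 0.79, edgeR adjusted p = 0.112), and DESeq2 and the likelihood ratio test called it. In *Yap* cKO it was at 4.34 TPM in YR711 against 7.07 and 7.78 TPM in YR713 and YR714, the retinas with *Xist*. With the sex covariate its log2 fold change was 0.63 (edgeR adjusted p = 0.159). Without YR711 its edgeR adjusted p was 0.0309, and with any other retina left out it was above 0.05. Of the 15, 8 lay above 0 and 7 below, with a median of 0.03. At an unadjusted p under 0.05, 5 were higher and 1 lower, against 11.99% and 9.42% of all genes.

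**Figure D4:**
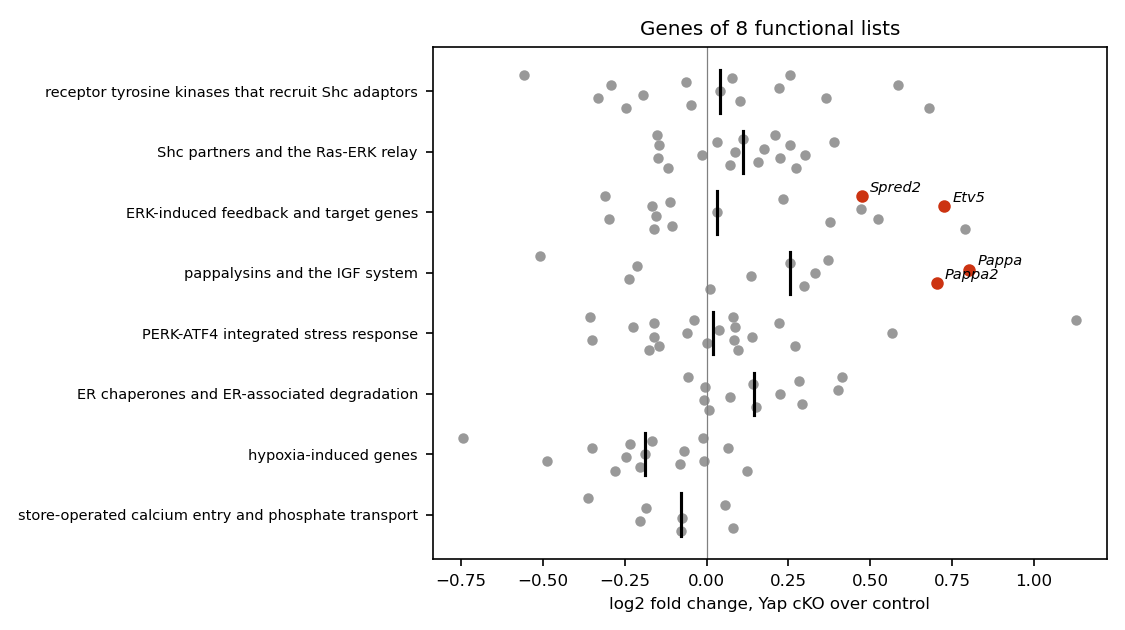
Log2 fold change (*Yap* cKO over control) of each tested gene of the 8 lists (grey points; red, adjusted p of at most 0.05) with the median of each list as a black bar. The red points are *Etv5*, *Spred2*, *Pappa* and *Pappa2*, all above 0.

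On the stanniocalcin side, both pappalysin genes rose among 11 genes of the IGF system at an adjusted p of 0.05 by edgeR's quasi-likelihood test, as did 0.501% of all genes, and 0 fell. At an unadjusted p under 0.05, 4 were higher and 0 lower, against 11.99% and 9.42% of all genes. By all criteria, edgeR's quasi-likelihood test, limma-voom, DESeq2 and the likelihood ratio test each called *Pappa2* and no other gene of the list. *Pappa2* codes for a protease that cuts IGF-binding proteins 3 and 5. It was at 6.52, 9.92 and 7.66 TPM in control retinas against 14.63, 13.95 and 12.15 TPM in *Yap* cKO, with no overlap (log2 fold change 0.70, SE 0.13; edgeR adjusted p = 0.0363). *Pappa*, which codes for the protease that cuts IGF-binding protein 4, was at 1.11, 1.61 and 1.11 TPM in control retinas against 2.215, 2.397 and 2.322 TPM in *Yap* cKO. Its groups did not overlap either (log2 fold change 0.80, SE 0.16; edgeR adjusted p = 0.0442), but its level lay below the 5 TPM of the criteria. Corrected for length, with exons of 10294 and 11027 bases, the log2 fold changes fell to 0.56 for *Pappa2* and 0.64 for *Pappa*. Both lost the threshold with the sex covariate (edgeR adjusted p = 0.0506 for *Pappa2* and 0.0683 for *Pappa*). With YR612, YR615, YR711 or YR713 left out, the edgeR adjusted p was 0.153, 0.184, 0.0836 and 0.174 for *Pappa2* and 0.221, 0.209, 0.0741 and 0.192 for *Pappa*.

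The substrates did not pass the test. *Igfbp4* was at 42.8 ± 4.25 TPM in control retinas against 38.5 ± 4.05 TPM in *Yap* cKO (log2 fold change -0.21, SE 0.11). *Igfbp5* was at 34.7 ± 3.23 and 45.5 ± 6.91 TPM (log2 fold change 0.33, SE 0.11). The list's median log2 fold change was 0.26, and 0.11 with the length correction.

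**Figure D5:**
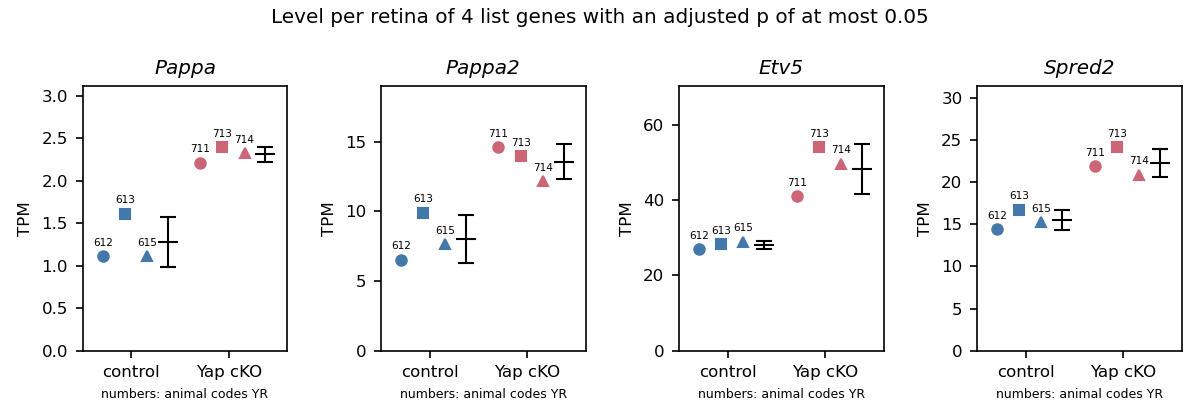
Level in TPM (y axis, starting at 0) of the pappalysin genes *Pappa* and *Pappa2* and the ERK-induced genes *Etv5* and *Spred2* in each retina, with the mean and SD per group in black. In all 4 the *Yap* cKO retinas lay above the controls, in *Pappa2* between 12.2 and 14.6 TPM against 6.52 to 9.92 TPM.

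Lists on ER stress and hypoxia covered states under which *Stc2* is known to be induced, and a list on calcium and phosphate covered functions first known for stanniocalcins. Of 20 genes of the PERK-ATF4 stress response, 0 passed the adjusted threshold by edgeR's quasi-likelihood test, and 0 met all criteria by DESeq2, the likelihood ratio test or limma-voom. At an unadjusted p under 0.05, 0 were higher and 1 lower, and the median was 0.02. *Atf4* itself was at 414 ± 62.8 TPM in control retinas against 390 ± 52.6 TPM in *Yap* cKO. The highest value of the list, a log2 fold change of 1.13 for *Chac1*, a glutathione-degrading enzyme, rested on YR713 at 21.6 TPM, since the other retinas lay between 3.65 and 5.09 TPM, and it was -0.07 without YR713. *Psat1*, an enzyme of serine synthesis, had the smallest p of the list, at 47.9 ± 2.65 TPM in control retinas against 39.1 ± 3.05 TPM in *Yap* cKO. Its edgeR adjusted p was 0.0623, 0.0400 with the length correction and 0.0911 with the sex covariate. With 1 retina left out it was at most 0.05 in 1 fit.

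Of 12 ER chaperone and degradation genes, 0 passed the adjusted threshold by edgeR's quasi-likelihood test and 0 met all criteria by the other 3 tests. In all, 9 lay above 0, as did 8329 of all 16575 genes tested, and the median was 0.15. At an unadjusted p under 0.05, 4 were higher and 0 lower, against 11.99% and 9.42% of all genes. *Xbp1*, a transcription factor of the ER stress response, was at 85.0 ± 5.08 TPM in control retinas against 118 ± 17.0 TPM in *Yap* cKO. Its edgeR adjusted p was 0.116, 0.0344 with the length correction and 0.150 with the sex covariate. It stayed above 0.05 with any 1 retina left out. The chaperone gene *Hspa5* was at 326 ± 26.4 and 415 ± 64.7 TPM. In *Yap* cKO, *Xbp1* was at 98.1 TPM in YR711 against 126 and 129 TPM in YR713 and YR714, the retinas with *Xist*. *Hspa5* was at 340 against 448 and 456 TPM in the same order. Whether these levels depend on sex was not tested. Of 15 tested hypoxia-induced genes, 0 passed by any of these tests, 13 lay below 0, and 5 were lower and 0 higher at an unadjusted p under 0.05, with a median of -0.19. *Slc2a1*, the glucose transporter, was at 309 ± 19.6 TPM in control retinas against 253 ± 7.22 TPM in *Yap* cKO (log2 fold change -0.35; edgeR adjusted p = 0.0741), and *Pgk1*, an enzyme of glycolysis, at 434 ± 7.72 and 372 ± 29.1 TPM. Of 7 tested genes of store-operated calcium entry and phosphate transport, 0 passed by any of these tests, 2 were lower and 0 higher at an unadjusted p under 0.05, and the median was -0.08. *Slc20a2*, a sodium-coupled phosphate transporter, was at 32.9 ± 0.446 TPM in control retinas against 26.7 ± 0.674 TPM in *Yap* cKO (log2 fold change -0.36). Its edgeR adjusted p was 0.0506, 0.0193 with the length correction and 0.0803 with the sex covariate. With 1 retina left out it was at most 0.05 in 2 fits. The calcium channel gene *Orai2* was at 20.1 ± 0.963 and 18.1 ± 1.44 TPM.

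Across the 6 retinas the genes most like *Shc3* in log2 CPM were *Galnt15* (Pearson's r = 0.998), *Smarcc1* (0.997) and *Gm37824* (0.997), and those most like *Stc2* were *Unc5b* (0.996), *Exph5* (0.995) and *2900026A02Rik* (0.991). These are descriptions over 6 libraries that share their depth and sex differences, and 2.07% of genes reached 0.95 with *Shc3* and 0.513% with *Stc2*. *Unc5b*, a netrin receptor, averaged 8.35 TPM in control retinas against 13.7 TPM in *Yap* cKO (log2 fold change 0.66; edgeR adjusted p = 0.0645). The log2 fold change was 0.24 for both *Galnt15* and *Smarcc1* (edgeR adjusted p = 0.176 and 0.136) and 0.57 for *2900026A02Rik* (0.0752). *Gm37824* and *Exph5* averaged at most 1.21 TPM in either group. A high r thus says nothing about the size of a change or the level. *Shc3* and *Stc2* themselves had r = 0.823, and 0.183 once the group means were taken out, so within the groups their deviations ran little together.

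The summed markers of 4 cell types did not overlap between the groups, and neither did 24.3% of single genes tested. *Rlbp1* is in both the Müller glia and the pigment cell list, so these 2 sums are not separate. Summed connective tissue markers were at 45.9 to 50.1 TPM in control retinas against 10.2 to 15.5 TPM in *Yap* cKO retinas, with *Col1a1*, *Col3a1* and *Lum* under 1 TPM in all 6, and 2 of the 6 tested met the criteria, both lower, as did 0.585% of all genes in this direction. Pigment cell markers were at 1515 to 1596 TPM in control retinas against 958 to 1372 TPM in *Yap* cKO retinas, with 1 of 10 meeting the criteria, lower. Of these 10, 0 lay above 0, with a median log2 fold change of -0.87. By edgeR's quasi-likelihood test 6 were lower and 0 higher at an unadjusted p under 0.05, against 9.42% and 11.99% of all genes. By all criteria DESeq2 called 2, the likelihood ratio test 3 and limma-voom 1, all lower. Müller glia markers were at 6869 to 7094 and 6012 to 6427 TPM, where 0 of 8 met the criteria by edgeR's quasi-likelihood test, DESeq2, the likelihood ratio test or limma-voom, and 1 was higher and 4 lower at an unadjusted p under 0.05. Ciliary epithelium markers summed to 362 to 368 TPM in control retinas against 382 to 458 TPM in *Yap* cKO, although their median log2 fold change was -0.44 and the 1 of 10 that met the criteria was lower. Amacrine and ganglion cell markers, from the inner neurons, overlapped, with 2691 to 2994 TPM in control retinas against 2819 to 3063 TPM in *Yap* cKO retinas. The sums of rod, bipolar, astrocyte, vascular, microglia and lens or cornea markers overlapped as well, with 1 of 4 astrocyte markers meeting the criteria, lower. The part of these cells in the values of *Shc3* and *Stc2* was not tested, and in whole retinas fewer cells of a type and less RNA per cell cannot be told apart.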

How the data were processed

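Stranded libraries of polyadenylated RNA from 6 retinas were aligned by the authors to GRCm38 with STAR 2.7.3a and counted per gene with featureCounts 1.6.2 (strand setting 2, annotation release 98), per the file headers and the submitters' processing notes. The deposited values are raw counts per gene and retina, with each gene's exonic length, from which TPM was computed. Groups, animal codes and treatment came from the labels. The age was read from the name of the deposited counts, and the study's methods give the same age. Symbols were given to 55154 of 55421 genes.

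Genes passing filterByExpr (16575) were normalised by TMM and tested with the quasi-likelihood test of edgeR 4.0.16 (R 4.3.3), *Yap* cKO against control, and p-values were adjusted by Benjamini-Hochberg over all tested genes. Standard errors come from each gene's log2 fold change and F statistic. DESeq2 1.42.0, limma-voom (limma 3.58.1), other size factors, no filter on low counts, length-corrected offsets (loess span 0.3) and each retina left out were alternatives, and the sex covariate was added after seeing the data. The members and the gene lists were chosen with earlier results of these data known. Named were the 6 members, *Yap1*, the 3 genes most like *Shc3* and *Stc2*, the list genes meeting all criteria or else the 2 with the smallest p, and direct partners; others are marked, and 1 gene the rule names is not reported here. In a simulation with 200 changed genes among 16405, 200 of the changed and 4 of the unchanged were called. The changes set there were larger than those of *Shc3* and *Stc2* and lay in genes with higher levels. All genes were given 1 common dispersion (0.0126). The simulation therefore does not show how often changes of the size and level reported here are found. With 3 retinas per group the intervals and p-values rest on few animals, and an exact permutation test could not go below 0.1.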

Additional observations from a re-analysis of the deposited data

How the results depend on the processing

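Under each of the 15 alternatives run on them, the log2 fold changes of the 6 members moved by less than 1 within-group SD. With so few retinas, leaving 1 out can hardly move a log2 fold change by 1 SD, so the bound does not test those fits. The bound was also wide for the genes that varied most, with an SD in log2 CPM of 0.437 for *Stc2* and 0.389 for *Shc3* against 0.108 for *Shc2*. The sign changed only for *Stc1*, which lay near 0. Over all genes, 132 met the criteria in the main fit, against 263 with DESeq2's Wald test, 291 with edgeR's likelihood ratio test, 369 with no filter on low counts, 247 by adjusted p alone and 38 to 516 with 1 retina left out (38 without control YR615, 516 without control YR613). The study, which also used edgeR and these thresholds, reported more genes than this main fit called. Over the 8 pathway lists, 2 genes met them, against 5 with DESeq2, 4 with the likelihood ratio test, 5 with no filter, 1 with the length correction (*Etv5*), 4 by adjusted p alone, 1 with the sex covariate (*Etv5*) and 0 to 4 with 1 retina left out. Ranked by CPM, which is not set per length, in place of TPM, control levels put *Shc4* at 4, *Shc3* at 5 and *Stc2* at 6. No paired analysis was possible because the labels give the groups no shared replicate numbers. Low counts, 70 to 145 fragments in control retinas for *Shc3*, *Shc4* and *Stc2*, limit their precision.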
